A study of Mus musculus with 6 samples.

Results

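The 7 genes described here carry the polyol and fructose route of the mouse kidney and the step that oxidises inositol. They are Akr1b3, Akr1b8, Sord, Slc2a5, Khk, Tkfc and Miox. They were chosen by name, each symbol was matched to 1 Ensembl gene ID, and all 7 were found among the 55401 IDs of the deposited count table.

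RNA of whole kidneys was sequenced in 3 libraries labelled DKD (diabetic kidney disease) and 3 labelled control, in a study designed around histone methyltransferases. The labels record DKD or control as the genotype. The sources used here do not give the strain, the way diabetes was brought about, the age or the day of collection, nor whether every library comes from its own animal. For that reason a p-value here reflects variation among 6 libraries that may be partly technical.

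In the polyol pathway, aldose reductase turns glucose into sorbitol at the expense of NADPH, and sorbitol dehydrogenase then oxidises sorbitol to fructose. Fructose, whether made this way or taken up by a transporter, is phosphorylated by ketohexokinase, split and passed on to glycolysis and gluconeogenesis, chiefly in the proximal tubule. Sorbitol and inositol are also osmolytes of medullary cells, and inositol oxygenase opens the breakdown of inositol in the proximal tubule.

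Promoter stretches are shown for the genes that differed most in each direction, Akr1b8 and Miox, and a short site is shown for Khk because it holds a pair of the motifs searched. Each stretch ends before the first annotated exon. The Khk site lies past the start of such an exon, though still within the 250 bases before the RefSeq start. The stretches are from RefSeq (build GRCm38.p6, plus strand, 5′ to 3′), with the matches in capitals, and 6 of the 7 genes had an entry in that table. Akr1b3 is the gene without an entry.
Akr1b8, chr6:34353896-34354118: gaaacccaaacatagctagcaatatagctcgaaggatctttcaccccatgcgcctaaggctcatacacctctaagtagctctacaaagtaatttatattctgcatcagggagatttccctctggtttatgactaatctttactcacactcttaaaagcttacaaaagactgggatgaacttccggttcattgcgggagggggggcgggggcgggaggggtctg
Miox, chr15:89334223-89334397: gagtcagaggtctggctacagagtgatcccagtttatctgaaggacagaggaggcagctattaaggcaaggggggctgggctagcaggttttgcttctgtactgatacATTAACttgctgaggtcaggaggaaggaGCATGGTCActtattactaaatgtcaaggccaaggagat
Khk, chr5:30921482-30921511: ccccgtCACGTGacaccGTTAATctggcgc

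In the Miox stretch the capitals mark, on the opposite strand, the HNF1 half-site GTTAAT and the antioxidant response element core TGACNNNGC. In the Khk site they mark the E-box CACGTG and the HNF1 half-site. Both strands of the 250 bases before each RefSeq start were searched, and 32851 promoter windows of that length gave the background. The HNF1 half-site stood in 6.43% of all windows, the E-box in 6.02%, the tonicity element core TGGAAA in 18.6% and the antioxidant core in 10.2%. The antioxidant core can overlap AP-1 sites. Of the other genes searched, Tkfc held the tonicity and antioxidant cores, while Sord, Slc2a5 and Akr1b8 held none of the 4 motifs. The Tkfc matches, like those of Khk, lie past the start of the first annotated exon. A match is a run of letters, and binding was not measured.

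Library totals ran from 64816622 to 77417638 counts, and levels are given as CPM, a unit that divides each gene's count by its TMM-adjusted library total. DKD replicate 1 stood apart from the other DKD libraries: its median correlation was 0.943 with DKD libraries and 0.960 with control libraries. The summed CPM of 12 hepatocyte markers was 4307, 301 and 365 in DKD replicates 1, 2 and 3, and 307, 199 and 286 in control replicates 1, 2 and 3. In DKD replicate 1 all 12 of these markers were above every control library, and albumin (Alb) reached 2321 CPM there, against 7.20 to 14.7 CPM in the other 5 libraries. Of these 12, Serpina3k, Ahsg and Mup3 were at 0 in every control library. Liver also makes Sord, Khk and Tkfc, and the part of the hepatocyte transcripts in the values of DKD replicate 1 was not tested. The comparisons of the 7 genes are therefore given with and without this library, which was singled out after its values were seen.

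With all 6 libraries, the quasi-likelihood test of edgeR called 0 of 19197 genes at an adjusted p of 0.05, which is 0% of the genes, and none of the 7. At an unadjusted p below 0.05 it took 6 of the 7, against 19.2% of all genes. DESeq2 called 5 of the 7, against 9.11% of all genes (6.22% higher and 2.89% lower), and limma-voom with sample quality weights called 5, against 17.7% (9.94% higher and 7.75% lower). Without DKD replicate 1, edgeR called 5 of the 7, against 15.5% of 19989 genes. Leaving the same library out, DESeq2 called 5 of the 7, against 23.3% of all genes (13.2% higher and 10.1% lower), and weighted limma-voom 5, against 24% (14.7% higher and 9.39% lower). The 5 were Akr1b3, Akr1b8, Sord, Khk and Miox in each of these 5 fits. Akr1b3 and Akr1b8 were the 2 called higher in DKD kidneys without that library, where 9.67% of all genes were called higher, and the other 3 were called lower, as were 5.84% of all genes.

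**Figure D1:**
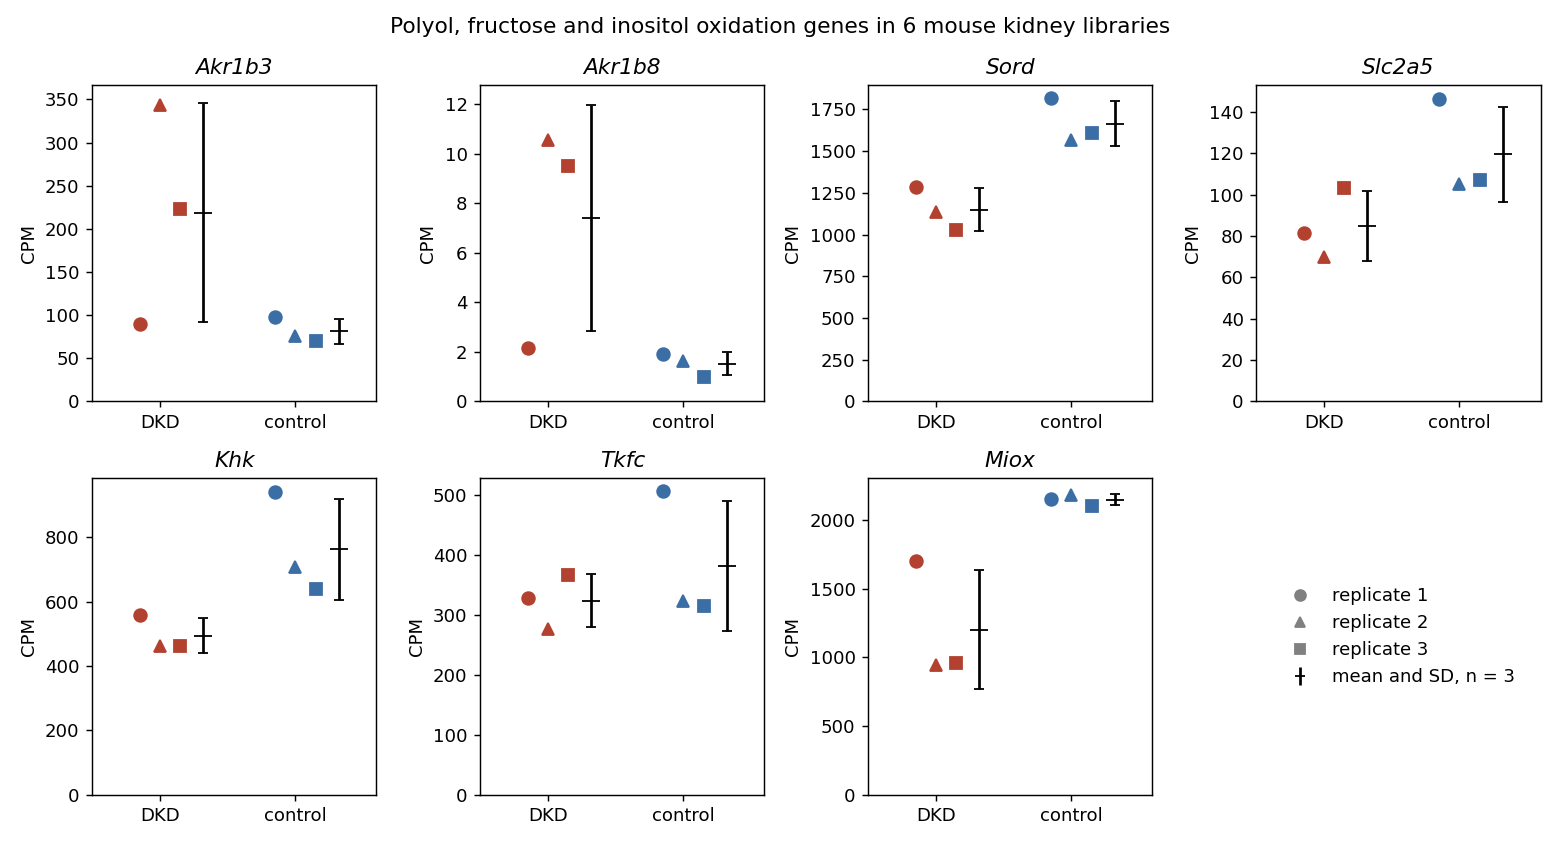
CPM of each of the 7 genes in each library, DKD libraries on the left and control libraries on the right of each panel, with the mean and SD of each group beside its points. Akr1b3 and Akr1b8 stand high in DKD replicates 2 and 3, and DKD replicate 1 lies with the control libraries for Akr1b3.

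Akr1b3 encodes aldose reductase, which makes sorbitol from glucose. Its level was 90.1, 344 and 223 CPM in DKD replicates 1, 2 and 3, and 97.8, 76.2 and 70.4 CPM in control replicates 1, 2 and 3. DKD replicates 2 and 3 were above every control library, while DKD replicate 1 was inside the control range, so the groups overlapped. The means were 219 ± 127 CPM in DKD kidneys and 81.5 ± 14.5 CPM in control kidneys (SD, n = 3 each). The log2 difference was 1.43 ± 0.46 (SE) with all 6 libraries, with an edgeR adjusted p of 0.184. Without DKD replicate 1, the gene rose by 1.79 ± 0.21 on the log2 scale, with an edgeR adjusted p of 0.00381. With all 6 libraries the adjusted p was 0.00620 by DESeq2 and 0.0139 by weighted limma-voom.

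Several predicted genes are near-identical to the Akr1b3 transcript, and reads could be split among them. Gm38056 shared 99.7% identity over 1352 bases, Gm6644 99.7% over 951, Gm6736 99.5% over 948 and Gm12138 99.1% over 951. The copies held 3.54%, 3.68% and 3.95% of the summed counts in DKD replicates 1, 2 and 3, and 3.93%, 4.03% and 4.06% in control replicates 1, 2 and 3. These shares were alike in all 6 libraries. With the copies added to Akr1b3, the log2 difference was 1.42 and the edgeR adjusted p remained 0.184.

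Akr1b8 encodes an aldose reductase relative that reduces aliphatic and aromatic aldehydes. It had 2.17, 10.6 and 9.50 CPM in DKD replicates 1, 2 and 3, against 1.92, 1.64 and 1.00 CPM in control replicates 1, 2 and 3. Every DKD library was above every control library, with DKD replicate 1 close to the highest control. The counts behind these values were 165, 815 and 806 in DKD libraries and 114, 108 and 71 in control libraries. The mean of 7.41 ± 4.58 CPM in DKD kidneys stood against 1.52 ± 0.470 CPM in control kidneys (SD, n = 3 each), and the log2 difference was 2.29 ± 0.59 (edgeR adjusted p = 0.139). Without DKD replicate 1 the gene rose by 2.72 ± 0.29 on the log2 scale (edgeR adjusted p = 0.00309), a fold of 6.57. DESeq2 on all 6 libraries gave an adjusted p of 0.00123 and weighted limma-voom 0.0226.

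The nearest relatives of Akr1b8 in sequence were Akr1b10, with 86.9% identity over 909 bases, and Akr1b7, with 87.0% over 905 bases. Akr1b10 was at 30.2, 27.4 and 27.1 CPM in DKD replicates 1, 2 and 3, and at 32.5, 27.0 and 24.7 CPM in control replicates 1, 2 and 3. Akr1b7 was at 2.04, 1.62 and 1.89 CPM in DKD libraries and at 1.36, 2.74 and 2.72 CPM in control libraries. The groups overlapped for both relatives, and their edgeR adjusted p-values were 0.969 for Akr1b10 and 0.644 for Akr1b7, or 0.846 and 0.525 without DKD replicate 1.

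Sord encodes sorbitol dehydrogenase, which oxidises sorbitol to fructose. It was at 1285, 1137 and 1026 CPM in DKD replicates 1, 2 and 3, and at 1819, 1567 and 1610 CPM in control replicates 1, 2 and 3. All 3 DKD libraries were below every control library. The means were 1149 ± 130 CPM in DKD kidneys and 1665 ± 135 CPM in control kidneys (SD, n = 3 each), a log2 difference of -0.54 ± 0.13 (edgeR adjusted p = 0.133). Sord fell by 0.63 ± 0.11 on the log2 scale without DKD replicate 1 (edgeR adjusted p = 0.0137). With all 6 libraries, the adjusted p was 0.00186 by DESeq2 and 0.0146 by weighted limma-voom. The pseudogene Gm6652 shares 99.3% identity with Sord over 1070 bases and held 0.882% to 0.901% of their summed counts in DKD libraries and 0.845% to 0.939% in control libraries.

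The pair of polyol steps differed in opposite directions in DKD replicates 2 and 3. The Akr1b3 level as a share of the Sord level, both in CPM and without correction for length, was 7.01%, 30.2% and 21.7% in DKD replicates 1, 2 and 3. It was 5.38%, 4.86% and 4.37% in control replicates 1, 2 and 3. Every DKD library was above every control library, though DKD replicate 1 lay nearer to the controls than to the other DKD libraries. The log2 ratio averaged -2.59 in DKD libraries and -4.37 in control libraries, a difference of 1.78, and the exact two-sided permutation test gave p = 0.1, the smallest that 3 against 3 libraries allow. The difference was 2.40 without DKD replicate 1, where the log2 ratio averaged -1.96 in DKD libraries.

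Slc2a5 encodes GLUT5, a fructose transporter of the apical membrane of the proximal tubule. It was at 81.3, 70.0 and 103 CPM in DKD replicates 1, 2 and 3, and at 146, 105 and 107 CPM in control replicates 1, 2 and 3. The groups did not overlap, but DKD replicate 3 lay just below the lowest control library. The log2 difference was -0.49 ± 0.19 with an edgeR adjusted p of 0.220, and -0.47 ± 0.21 with an edgeR adjusted p of 0.180 without DKD replicate 1. DESeq2 gave an adjusted p of 0.0958 and weighted limma-voom 0.0955, so Slc2a5 did not pass by any of these tests.

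Khk encodes ketohexokinase, which commits fructose to breakdown by phosphorylating it. It was at 558, 461 and 464 CPM in DKD replicates 1, 2 and 3, and at 940, 709 and 640 CPM in control replicates 1, 2 and 3. The DKD libraries were below every control library, and control replicate 1 was the highest. Means of 494 ± 54.9 CPM in DKD kidneys and 763 ± 157 CPM in control kidneys (SD, n = 3 each) gave a log2 difference of -0.63 ± 0.17 (edgeR adjusted p = 0.146). Khk fell by 0.73 ± 0.17 on the log2 scale without DKD replicate 1 (edgeR adjusted p = 0.0313). With all 6 libraries, the adjusted p was 0.00943 by DESeq2 and 0.0215 by weighted limma-voom.

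Tkfc encodes triokinase, which phosphorylates the glyceraldehyde released from fructose. Its level was 329, 277 and 366 CPM in DKD replicates 1, 2 and 3, and 507, 323 and 315 CPM in control replicates 1, 2 and 3. The groups overlapped, and control replicate 1 alone was well above the rest. The log2 difference was -0.24 ± 0.21 (edgeR adjusted p = 0.567), and -0.26 ± 0.23 without DKD replicate 1 (edgeR adjusted p = 0.513), and Tkfc was called by none of the tests. Without control replicate 1 the difference was 0.020. Tkfc overlaps Cyb561a3 on the opposite strand, and the sources used here do not give the strand setting of the counting. Cyb561a3 differed by 0.07 on the log2 scale, with 30.0, 26.7 and 26.1 CPM in DKD libraries and 30.0, 24.1 and 24.8 CPM in control libraries.

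Miox encodes myo-inositol oxygenase, which oxidises inositol to glucuronate. It was at 1703, 944 and 958 CPM in DKD replicates 1, 2 and 3, and at 2157, 2185 and 2106 CPM in control replicates 1, 2 and 3. The DKD libraries were all below the control libraries, which were close to each other. The means were 1202 ± 434 CPM in DKD kidneys and 2149 ± 40.1 CPM in control kidneys (SD, n = 3 each), and the log2 difference was -0.84 ± 0.24 (edgeR adjusted p = 0.152). Without DKD replicate 1, Miox fell by 1.19 ± 0.09 on the log2 scale (edgeR adjusted p = 0.00140), a fold of 0.440. DESeq2 on all 6 libraries gave an adjusted p of 0.00797 and weighted limma-voom 0.0124.

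**Figure D2:**
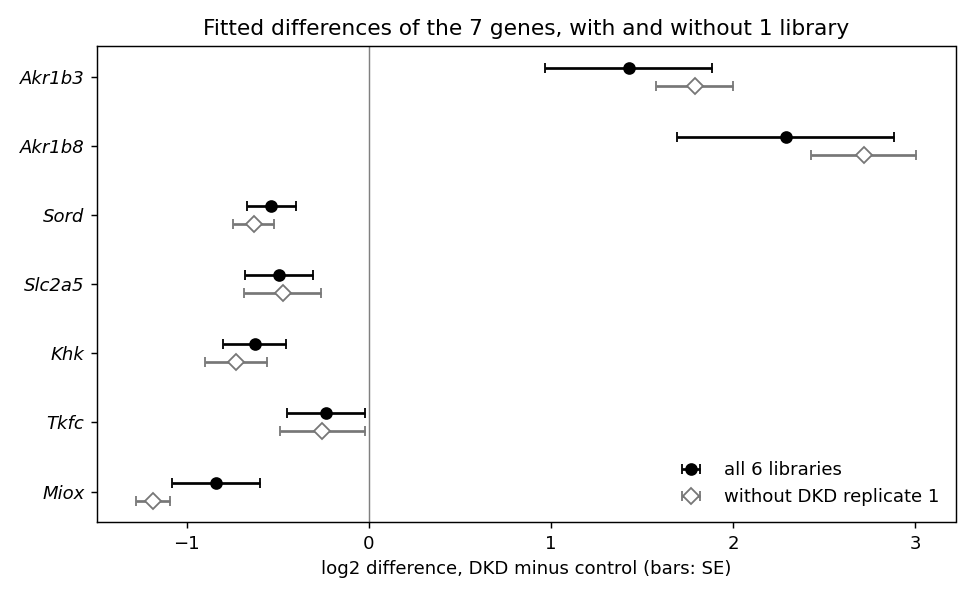
Log2 difference of each gene, DKD minus control, with its standard error, with all 6 libraries and without DKD replicate 1. Akr1b3 and Akr1b8 lie above 0 and the other 5 genes below it in both fits.

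Across the 7 genes, 5 had groups that did not overlap, 1 higher and 4 lower in DKD kidneys, against 25.4% of all genes in either direction (13.8% higher and 11.5% lower). The edgeR adjusted p-values with all 6 libraries ran from 0.133 to 0.567. With DKD replicate 1 left out, 6 did not overlap, 2 higher and 4 lower, against 51.2% of all genes (28.4% higher and 22.9% lower). The median log2 difference of the 7 was -0.49, and that of all genes tested was 0.022; without DKD replicate 1 they were -0.47 and 0.018.

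Levels were compared between genes per kilobase of the longest coding transcript (GENCODE M21). Miox was the most abundant at 1063 CPM per kilobase in DKD kidneys and 1902 in control kidneys, followed by Sord at 489 in DKD kidneys and 708 in control kidneys, and Khk at 312 in DKD kidneys and 482 in control kidneys. Akr1b3 was at 158 CPM per kilobase in DKD kidneys and 58.7 in control kidneys, and Tkfc at 118 in DKD kidneys and 138 in control kidneys. Akr1b3 was above Tkfc in DKD replicates 2 and 3, whereas Tkfc was the higher in DKD replicate 1 and in all 3 control libraries. Slc2a5 was at 26.9 CPM per kilobase in DKD kidneys and 37.8 in control kidneys. Akr1b8 was the least abundant, at 5.46 in DKD kidneys and 1.12 in control kidneys. The DKD means without DKD replicate 1, in CPM per kilobase, were 842 for Miox, 460 for Sord, 292 for Khk, 204 for Akr1b3, 117 for Tkfc, 27.4 for Slc2a5 and 7.39 for Akr1b8.

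Proximal tubule cells are the main kidney site of Khk, Slc2a5 and Miox, and some but not all markers of these cells were lower in DKD kidneys. The summed CPM of 11 proximal tubule markers was 16072, 12667 and 12692 in DKD replicates 1, 2 and 3, and 20487, 19194 and 19110 in control replicates 1, 2 and 3. Of the 11, 7 were lower in every DKD library than in every control library, against 11.5% of all genes. In whole kidneys, fewer cells of a type and less RNA per cell cannot be told apart. The 8 markers of the S3 segment summed to 5428, 2275 and 1900 CPM in DKD libraries and 5547, 4035 and 3877 CPM in control libraries, low in DKD replicates 2 and 3. The 6 markers of the S1 and S2 segments summed to 1269, 736 and 975 CPM in DKD libraries. In control libraries they summed to 1053, 1030 and 1068 CPM, so DKD replicates 2 and 3 were below every control library. Of these 6, Slc7a8 and Gc were higher in every DKD library than in every control library, against 13.8% of all genes. None was lower in every one, but Slc5a2, Slc5a12 and Slc7a7 were below every control library in DKD replicates 2 and 3. Without DKD replicate 1, 22.9% of all genes were lower in this way. In edgeR without DKD replicate 1, 5 of the 11 general markers and 5 of the 8 S3 markers were called lower. So were 2 of the 6 S1 and S2 markers, and none of these markers was called higher. Of all genes, 5.84% were called lower and 9.67% higher in that fit.

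Markers of other cell types also moved. Macrophage markers summed to 113%, 148% and 178% of the control mean in DKD replicates 1, 2 and 3. Most of this sum was Csf1r in DKD replicate 1 and in the control libraries, but not in DKD replicates 2 and 3. Csf1r was at 89.1, 58.2 and 66.3 CPM in DKD libraries and 74.1, 62.3 and 72.7 CPM in control libraries. The other 6 macrophage markers stood at 84.5%, 275% and 342% of the control mean, so they were high in DKD replicates 2 and 3 and not in DKD replicate 1. Fibroblast and mesangial markers were at 221%, 182% and 274%. Podocyte markers were at 137%, 140% and 180%. All 6 podocyte markers were higher in every DKD library than in every control library, against 13.8% of all genes. Thick ascending limb and distal tubule markers were at 116%, 128% and 113%, and collecting duct principal cell markers at 93.9%, 85.8% and 116%. Inner medulla and thin limb markers were at 88.2%, 68.8% and 67.9%, a sum that was mostly Aqp1 in every library. The 6 adipocyte markers summed to 0.368, 2.95 and 14.6 CPM in DKD libraries and to 0.0564 to 0.50 CPM in control libraries. Akr1b3 and Akr1b8 were also high in DKD replicates 2 and 3. Both genes were highest in DKD replicate 2, as was the thick ascending limb and distal tubule sum. The macrophage, fibroblast and mesangial, podocyte and adipocyte sums were highest in DKD replicate 3. The part of these cell types in the differences was not tested.

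As a share of the proximal tubule marker sum, Sord was at 7.99%, 8.97% and 8.08% in DKD replicates 1, 2 and 3, and at 8.88%, 8.16% and 8.42% in control replicates 1, 2 and 3. Khk was at 3.47%, 3.64% and 3.65% in DKD libraries and at 4.59%, 3.69% and 3.35% in control libraries. The groups overlapped for both shares. Slc2a5 was at 0.506%, 0.553% and 0.812% in DKD libraries and at 0.713%, 0.547% and 0.560% in control libraries. Tkfc was at 2.05%, 2.19% and 2.89% in DKD libraries and at 2.47%, 1.68% and 1.65% in control libraries. The groups overlapped for Slc2a5 and Tkfc too, and DKD replicate 3 had the highest share of each. Miox was at 10.6%, 7.45% and 7.55% in DKD libraries and at 10.5%, 11.4% and 11.0% in control libraries. For Miox, DKD replicates 2 and 3 were below every control library, while DKD replicate 1 was inside the control range. These shares were computed after the values were seen and were not tested. Hepatocyte markers were high in DKD replicate 1, and the part of hepatocyte transcripts in its shares and its marker sum was not tested.

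**Figure D3:**
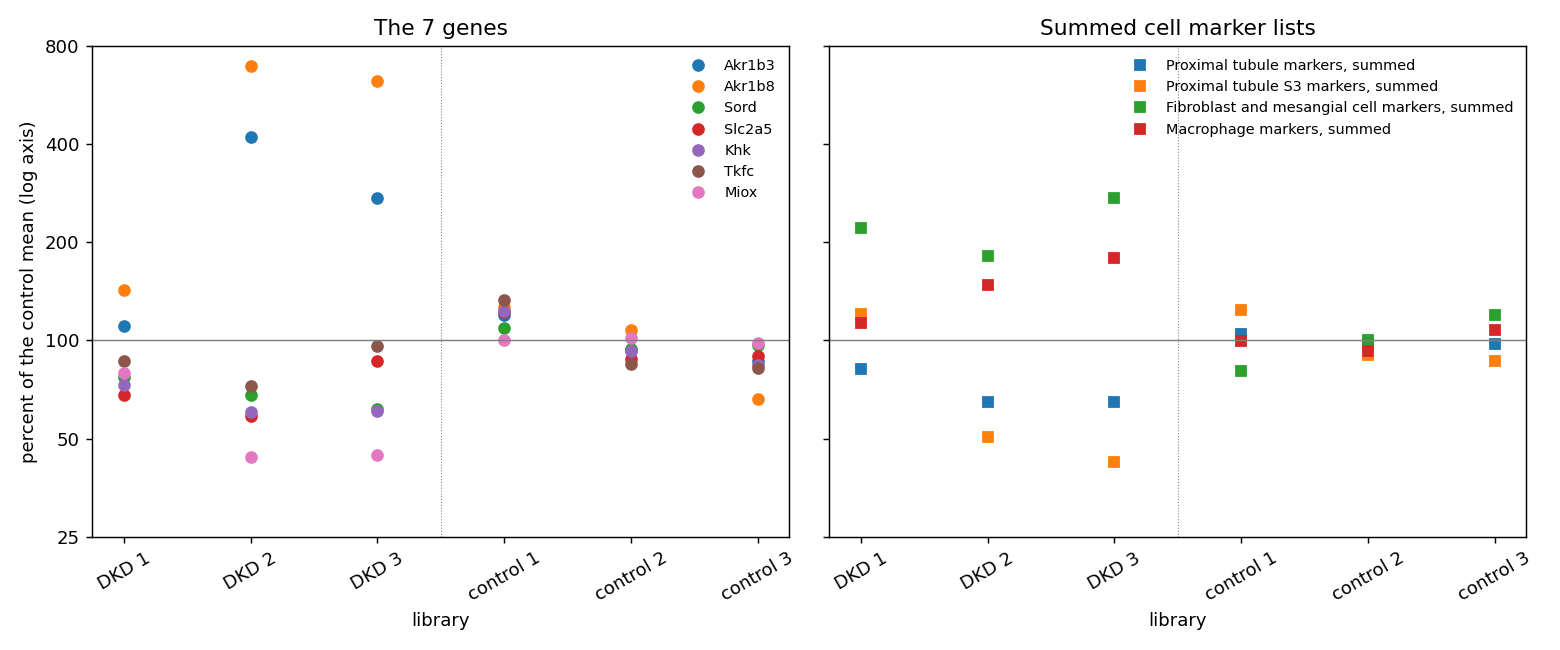
The 7 genes (left) and 4 summed cell marker lists (right) in each library as a percent of the control mean, on a log axis, DKD libraries left of control libraries; the macrophage sum includes Csf1r. In DKD replicates 2 and 3 Miox was at 43.9% and 44.6%, while the proximal tubule marker sum was at 64.6% and 64.8%.

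Related genes were listed by role, and with all 6 libraries edgeR called none of the 54 tested that are not among the 7, of which 20 had an unadjusted p below 0.05 (19.2% of all genes did). Their log2 differences were above 0 for 28 and below 0 for 26, with a median of 0.01. Without DKD replicate 1, edgeR called 7 of them higher and 11 lower, against 9.67% and 5.84% of all genes. With all 6 libraries DESeq2 called 5 higher and 7 lower, against 6.22% and 2.89% of all genes, and weighted limma-voom 8 higher and 14 lower, against 9.94% and 7.75%. The counts by list that follow include any of the 7 genes that a list holds, and calls without DKD replicate 1 are to be read against the same 9.67% higher and 5.84% lower. The genes described are taken from the 4 with the smallest p in each list.

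On the aldose reductase side, 3 of 7 genes had log2 differences above 0 and 4 below, and without DKD replicate 1 edgeR called 2 higher and 2 lower. Of these 4, Akr1b3, Akr1b8 and Sord are described above, and Akr1a1 is the other. Akr1a1, an aldehyde reductase of broad substrate range, was at 1480, 1357 and 1390 CPM in DKD replicates 1, 2 and 3, and at 2084, 1910 and 1962 CPM in control replicates 1, 2 and 3. The groups did not overlap, and without DKD replicate 1 it was called lower (edgeR adjusted p = 0.0135), while with all 6 libraries the log2 difference was -0.49 ± 0.11 (edgeR adjusted p = 0.114). None of the 6 fructose transport genes tested was called in either fit of edgeR, with 5 above 0 and 1 below with all 6 libraries, and 4 above and 2 below without DKD replicate 1. Slc5a9, a sodium-coupled sugar transporter, was called higher without that library by DESeq2 (adjusted p = 0.0382) and weighted limma-voom (adjusted p = 0.0312). Slc5a10, a sodium-coupled transporter of fructose and mannose, was at 216, 260 and 392 CPM in DKD libraries and at 391, 238 and 216 CPM in control libraries, so the groups overlapped.

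Of the 9 fructose breakdown genes, 3 had log2 differences above 0 and 6 below with all 6 libraries, and 1 (Hk2) was called higher and 2 (Khk and Glyctk) lower without DKD replicate 1. The 1 of 9 called higher is near the 9.67% of all genes. Glyctk, the kinase that phosphorylates glycerate, was at 224, 159 and 153 CPM in DKD libraries and at 273, 255 and 249 CPM in control libraries, and was called lower without DKD replicate 1 (edgeR adjusted p = 0.00527). Fbp1, a gluconeogenic phosphatase, was at 1023, 818 and 907 CPM in DKD libraries and at 1370, 1072 and 1148 CPM in control libraries. It passed neither fit of edgeR. Weighted limma-voom called Fbp1 lower in both of its fits. Its adjusted p was 0.0397 for all 6 libraries and 0.0255 once DKD replicate 1 was left out. By DESeq2 these values were 0.0706 and 0.00582, so only the fit lacking that library called it lower.

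Of the 7 inositol genes, 2 were above 0 and 5 below, and without DKD replicate 1 edgeR called 1 higher and 3 lower, with Miox among the 3. Impa2, a phosphatase that releases free inositol, was at 17.4, 16.8 and 17.4 CPM in DKD replicates 1, 2 and 3, and at 11.0, 10.4 and 9.83 CPM in control replicates 1, 2 and 3. Its groups did not overlap and the replicates lay close together; the log2 difference was 0.72 ± 0.11 (edgeR adjusted p = 0.103, and 0.0149 without DKD replicate 1). Impa1, its paralog, differed the other way, with 110, 91.2 and 91.7 CPM in DKD libraries and 119, 133 and 133 CPM in control libraries. Impa1 was called lower without DKD replicate 1 (edgeR adjusted p = 0.0184).

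The glucuronate and xylulose list had 2 of 8 genes above 0 and 6 below, and 1 was called higher and 5 lower without DKD replicate 1. Gulo, the last enzyme of vitamin C synthesis and a liver gene in mice, was at 12.1, 3.22 and 2.22 CPM in DKD replicates 1, 2 and 3, and at 0.0673, 0.0606 and 0.113 CPM in control replicates 1, 2 and 3. The counts were 921, 248 and 188 in DKD libraries and 4, 4 and 8 in control libraries. Gulo was highest in DKD replicate 1, where hepatocyte markers were high, and above every control library in DKD replicates 2 and 3 as well. With Ttr and Serpina1a left out, which made up most of the hepatocyte sum outside DKD replicate 1, the other 10 hepatocyte markers summed to 3868, 28.3 and 19.7 CPM in DKD libraries and 30.3, 26.6 and 27.7 CPM in control libraries. Ttr was at 180, 181 and 257 CPM in DKD libraries and at 89.3, 0.485 and 0.339 CPM in control libraries. Serpina1a was at 259, 92.3 and 88.2 CPM in DKD libraries and at 187, 172 and 258 CPM in control libraries. Of all 12 hepatocyte markers, Ttr and Fgb were higher in every DKD library than in every control library, against 13.8% of all genes. None was lower in every one. The part of liver transcripts in the Gulo values was not tested. It was called higher without DKD replicate 1 (edgeR adjusted p = 0.00153). Ugp2, which makes UDP-glucose, was at 190, 145 and 163 CPM in DKD libraries and at 223, 251 and 248 CPM in control libraries, and was called lower without DKD replicate 1 (edgeR adjusted p = 0.0108).

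In the tonicity list, 7 of 10 genes had log2 differences above 0, as did 10059 of all 19197 genes tested. The 3 below 0 were Slc6a6 (-0.27), Slc5a3 (-0.14) and Aqp2 (-0.001), and the groups overlapped for each. Nfat5, the transcription factor that drives aldose reductase under high salt, was at 104, 129 and 130 CPM in DKD replicates 1, 2 and 3, and at 70.9, 80.3 and 94.3 CPM in control replicates 1, 2 and 3. The groups did not overlap, and the log2 difference was 0.56 ± 0.14 (edgeR adjusted p = 0.133, and 0.0191 without DKD replicate 1). Without that library 3 of the 10 were called higher, against 9.67% of all genes, and none lower. The 3 were Akr1b3, Nfat5 and Sgk1.

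Among 11 genes tested of AMP breakdown and urate handling, 6 were above 0 and 5 below. Ampd3, an AMP deaminase, was at 25.8, 43.9 and 46.2 CPM in DKD replicates 1, 2 and 3, and at 16.2, 15.5 and 17.0 CPM in control replicates 1, 2 and 3. All DKD libraries were above all control libraries, with a log2 difference of 1.25 ± 0.21 (edgeR adjusted p = 0.103, and 0.000747 without DKD replicate 1). Slc17a1, an apical phosphate and urate transporter, was at 634, 462 and 418 CPM in DKD libraries and at 809, 666 and 672 CPM in control libraries, without overlap, and was called lower without DKD replicate 1 (edgeR adjusted p = 0.0131).

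The sugar sensing list had 4 of 7 genes above 0 and 3 below, and without DKD replicate 1 edgeR called 1 higher and 1 lower. The gene called lower was Mlx (edgeR adjusted p = 0.0154). It was at 58.5, 36.8 and 39.2 CPM in DKD libraries and at 67.3, 55.9 and 55.2 CPM in control libraries, so its groups overlapped through DKD replicate 1. Arrdc4, an arrestin-domain gene induced by glucose, was at 15.2, 22.5 and 27.1 CPM in DKD libraries and at 13.7, 9.76 and 10.4 CPM in control libraries. The groups did not overlap for Arrdc4, and it was called higher without DKD replicate 1 (edgeR adjusted p = 0.0100). Txnip, a thioredoxin inhibitor that glucose also induces, was at 211, 403 and 599 CPM in DKD libraries and at 347, 156 and 173 CPM in control libraries. Its groups overlapped through DKD replicate 1 and control replicate 1, and it passed neither fit of edgeR. Weighted limma-voom called Txnip higher in both of its fits. Its adjusted p was 0.0295 for all 6 libraries and 0.00795 once DKD replicate 1 was left out. By DESeq2 these values were 0.365 and 0.126, so Txnip was not called there.

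Genes with the most similar pattern were sought by the mean absolute difference of centred log2 CPM over the 6 libraries, among 14597 genes. For Akr1b3 they were its own copies Gm38056 (0.112) and Gm12138 (0.115) and the stress kinase relative Trib3 (0.113). Those of Akr1b8 were Ddias (0.153), Nfe2l3 (0.223) and Atp10b (0.225). For Khk they were Hsd3b3 (0.0510), Tmem256 (0.0511) and Gpn2 (0.0534), and for Slc2a5 they were Glod5 (0.0569), Apex2 (0.0702) and Sms-ps (0.0749). Miox was most like H2-Ke6 (0.0245), at 54.1, 31.2 and 30.7 CPM in DKD replicates 1, 2 and 3, and at 69.0, 66.1 and 66.9 CPM in control replicates 1, 2 and 3. Rpl34-ps1 (0.0629) was also among its nearest. Sord and Tkfc spanned less than 1 log2 unit over the libraries and were not searched.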

How the data were processed

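The authors deposited 1 table of raw read counts per gene for the 6 libraries, with no normalisation. The submitters' processing notes name the GRCm39 build and the tools fastp, HISAT2, StringTie and edgeR; tool versions, gene annotation and strand setting: not given in the sources used here. The analysis ran in R 4.3.3. The test was the robust, two-sided quasi-likelihood test of edgeR 4.0.16 on those deposited counts with TMM scaling, the low count filter on groups (minimum count 10) and Benjamini-Hochberg adjustment over 19197 genes at a threshold of 0.05. Standard errors come from the same statistic. DESeq2 1.42.0, limma 3.58.1 (voom with sample quality weights), other scalings and filters, a replicate block and leaving out single libraries were alternatives. Copies were sought with blastn 2.17.0 against GENCODE M21 transcripts (at least 95% identity over 300 bases). A count of 0 allows up to 3 counts, 0.0353 to 0.0505 CPM, which covers counting error only. The 7 genes and all lists were chosen with earlier results of these data known. In each list the 4 genes with the smallest p could be named, and those described were chosen from them after their values were seen. Marker sums without Csf1r, or without Ttr and Serpina1a, were added after seeing the data. Some genes that these rules take are not reported here. Scripts were tested on simulated data.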

Additional observations from a re-analysis of the deposited data

How the results depend on the processing

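With all 6 libraries edgeR called 0 genes and none of the 7, also under RLE factors, upper quartile factors, library size alone, a fit that is not robust, a CPM minimum of 1 in 3 libraries and factors without the 50 most counted genes. DESeq2 called 1749 genes and 5 of the 7, and weighted limma-voom 3397 and 5. Without the low count filter edgeR called 4 genes and 0 of the 7. Leaving out 1 library in turn gave 0 to 3101 genes and 0 to 5 of the 7; leaving out DKD replicate 1 gave the highest counts, and without control replicate 1 there were 7 genes and without DKD replicate 3 there was 1. DESeq2 and weighted limma-voom without DKD replicate 1, added after seeing the data, called 4658 and 4807 genes and 5 of the 7 each, while summing near-identical copies, also added then, left edgeR at 0 of the 7. The cause was not tested. Library size alone moved the median of all genes to 0.17 on the log2 scale, against 0.022.

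The labels do not say whether replicate numbers pair the libraries. Same-numbered libraries deviated from their group means with correlations of 0.0336, 0.0227 and 0.0344. With 3 libraries a group and DKD replicate 1 apart from the other DKD libraries, these values cannot decide whether the numbers pair libraries. A fit with the replicate block called 0 genes and 0 of the 7.

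Of 722 values for single genes under the alternatives, 603 kept direction and side of the threshold, 109 passed it only under the alternative and 10 changed sign. With 1 library left out, the log2 difference ran from -0.36 to 0.020 for Tkfc, -0.076 to 0.13 for Akr1b10, -0.068 to 0.25 for Slc2a2 and -0.25 to 0.35 for Slc5a10. Akr1b10 was also at -0.000144 with RLE factors and -0.056 by DESeq2 without DKD replicate 1. The cause was not tested. The 3 libraries a group limit all tests.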

Other observations

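Some values were singled out after they were seen. Uox, the urate oxidase of mouse liver, had 4503, 17 and 0 counts in DKD replicates 1, 2 and 3 and 0 counts in each control library. Rgn, a liver lactonase, was at 32.7, 6.96 and 5.56 CPM in DKD replicates 1, 2 and 3, and at 8.25, 6.65 and 6.12 CPM in control replicates 1, 2 and 3. Slc2a13, a proton-coupled inositol transporter, was at 12.9, 4.57 and 4.17 CPM in DKD libraries and at 8.40, 11.2 and 11.7 CPM in control libraries, low in DKD replicates 2 and 3 only. The hexokinase Hk2 was at 0.210, 2.10 and 2.13 CPM in DKD libraries and at 0.151, 0.545 and 0.381 CPM in control libraries.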
